A study of Homo sapiens with 12 samples.

Results

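The genes described here are 10 human heat shock genes: HSPA1A, HSPA1B, HSPA8, HSPH1, DNAJB1, BAG3, HSP90AA1, HSPB1, HSPD1 and HSPE1. They were taken by gene name from a table of read counts with 63677 rows. The names stand on 18 rows, of which 8 are extra identifiers of HSPA1A and HSPA1B with 0 counts in every sample, so that 1 row with counts was left for each gene. All 10 were among the 17092 genes tested, those that reached 10 counts in 3 or more samples. The samples were cultures of Huh7, an established human hepatocellular carcinoma cell line, and poly(A) RNA was sequenced. The study asked how graphene oxide (GO), GO carrying the ginseng saponin Rg3 (GO–Rg3), and GO–Rg3 further loaded with the anthracycline doxorubicin (GO–Rg3–DOX) act on these cells. Each group had 3 samples: untreated cells kept in medium only, cells given 400 µg/mL GO, cells given 400 µg/mL GO–Rg3, and cells given 100 µg/mL GO–Rg3–DOX, all for 6 h. The dose of GO–Rg3–DOX differed from the other 2 treatments, so its values are set side by side with theirs and not tested against them, and only GO and GO–Rg3 were compared at a matched dose. Nothing in the labels says that the 3 samples of a group were separate experiments, so p-values measure the spread between these samples, which may be technical.

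Heat shock proteins are molecular chaperones that bind unfolded proteins and help them fold, refold or reach degradation. The transcription factor HSF1 is held inactive in unstressed cells and, when unfolded proteins accumulate, forms trimers that bind heat shock elements, which are inverted repeats of the unit nGAAn, in the promoters of chaperone genes. Several of these genes, HSPA8, HSP90AA1 and HSPD1 among them, are also transcribed strongly without stress. In hepatocytes and hepatoma cells chaperones serve a large output of proteins.

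Letter matches to units of the heat shock element stood close to the transcription start of most of the 10 genes. Promoter windows of 300 bases (250 before and 50 after the start) came from the RefSeq table (build GRCh38.p14), and all 10 genes had a window that matched GRCh37 exactly once. A pair of units, GAANNTTC or TTCNNGAA, each of which is its own reverse complement, was found in the window of 7 of the 10 genes. In the table a pair stood in 13.5% of 35116 windows, and in any window of 16.2% of 27305 genes. The run of 3 units, GAANNTTCNNGAA or its reverse complement TTCNNGAANNTTC, was found in HSPA8, HSP90AA1 and HSPD1, 3 of the 10, against 0.49% of windows and 0.608% of genes. Each run of 3 units contains pairs. The 10 were chosen as heat shock genes, so more of these units than in other genes may follow from that choice. No match was found for HSPE1 (gene at chr2:198364864-198368173), BAG3 (chr10:121410892-121437331) or HSPH1 (chr13:31709110-31736525). The start used for the HSPH1 window lies 484 bases from the start of its reference transcript, and no window at that reference start was searched. The 4 genes that passed both thresholds in a comparison are shown first, from the bases before the start (250 bases, or 120 for HSPA1B), with the units in capitals; coordinates are GRCh37, and sequences are read 5′ to 3′ on the gene's strand.

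DNAJB1, chr19:14629210-14629459, minus strand: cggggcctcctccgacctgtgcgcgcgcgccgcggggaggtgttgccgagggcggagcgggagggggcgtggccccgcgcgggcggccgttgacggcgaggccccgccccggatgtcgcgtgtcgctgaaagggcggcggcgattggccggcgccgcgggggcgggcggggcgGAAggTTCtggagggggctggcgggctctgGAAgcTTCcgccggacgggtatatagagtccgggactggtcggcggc
HSPA8, chr11:122932845-122933094, minus strand: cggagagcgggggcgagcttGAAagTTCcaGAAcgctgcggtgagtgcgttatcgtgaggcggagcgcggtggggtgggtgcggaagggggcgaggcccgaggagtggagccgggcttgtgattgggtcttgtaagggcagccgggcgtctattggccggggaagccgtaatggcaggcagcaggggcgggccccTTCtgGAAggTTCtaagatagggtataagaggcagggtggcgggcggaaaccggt
HSPA1B, chr6:31795395-31795514, plus strand: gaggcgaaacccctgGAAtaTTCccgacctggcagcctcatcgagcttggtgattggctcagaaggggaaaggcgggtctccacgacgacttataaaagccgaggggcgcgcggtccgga
HSPB1, chr7:75931740-75931989, plus strand: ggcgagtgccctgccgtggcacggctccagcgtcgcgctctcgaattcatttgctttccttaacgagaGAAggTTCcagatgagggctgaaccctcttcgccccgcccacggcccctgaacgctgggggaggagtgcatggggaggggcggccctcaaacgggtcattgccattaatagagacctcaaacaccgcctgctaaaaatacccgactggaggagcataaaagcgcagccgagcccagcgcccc

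DNAJB1 has pairs of units that begin 77 and 47 bases before the start. HSPA8 has runs of 3 units that begin 230 and 55 bases before it. HSPA1B has a pair 105 bases before the start, and in HSPB1 the pair begins 182 bases before it.

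The next 3 sequences are those of genes that did not pass both thresholds in any comparison although the same motifs stand in them: the near-identical copy HSPA1A (120 bases), HSP90AA1 (120 bases) and HSPD1 (250 bases).

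HSPA1A, chr6:31783200-31783319, plus strand: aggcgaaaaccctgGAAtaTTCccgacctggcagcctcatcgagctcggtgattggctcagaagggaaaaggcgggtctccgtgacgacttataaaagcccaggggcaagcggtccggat
HSP90AA1, chr14:102553382-102553501, minus strand: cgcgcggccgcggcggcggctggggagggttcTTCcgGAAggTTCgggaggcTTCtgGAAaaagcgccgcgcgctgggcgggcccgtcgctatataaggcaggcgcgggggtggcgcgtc
HSPD1, chr2:198364565-198364814, minus strand: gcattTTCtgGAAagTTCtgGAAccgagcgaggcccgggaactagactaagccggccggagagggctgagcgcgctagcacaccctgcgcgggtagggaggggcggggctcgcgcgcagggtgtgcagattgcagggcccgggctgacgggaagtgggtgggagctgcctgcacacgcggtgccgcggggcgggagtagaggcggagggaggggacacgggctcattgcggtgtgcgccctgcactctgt

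The run of 3 units begins 88 bases before the start in HSP90AA1. In HSPD1 overlapping runs of 3 units begin 245 and 240 bases before the start. HSPD1 and HSPE1 lie head to head, with 538 bases between their starts. The HSPD1 run that begins 245 bases before the HSPD1 start begins 294 bases from the HSPE1 start. A match of letters is a description of the window and was not tested as a binding site.

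The 12 libraries held 27802871 to 38877420 counts. Levels are given as counts per 1000000 (CPM) after TMM scaling, a scaling that sets the bulk of genes equal between samples. Each is therefore relative to the bulk of genes and is not a plain share of the library. Fewer cells and less RNA per cell cannot be told apart. The marker levels that follow are CPM of library totals without that scaling. All 9 hepatocyte markers were above 1 CPM in every group, with a summed level of 26090 to 26440 CPM in untreated samples, 13430 to 19590 CPM after GO, 20460 to 24830 CPM after GO–Rg3 and 23270 to 31700 CPM after GO–Rg3–DOX. Of 5 fibroblast, 5 blood and 4 endothelial markers, the summed levels were at most 6.51, 3.47 and 0.516 CPM, and HBB, PECAM1 and KDR were at 0 in every group. The 5 genes listed for MDA-MB-231, the breast cancer line also used in the study, were VIM, KRT14, KRT5, CAV1 and CD44. They summed to 370.1 to 396 CPM in untreated samples, 510.3 to 732 CPM after GO, 403 to 448 CPM after GO–Rg3 and 350.1 to 465 CPM after GO–Rg3–DOX. In each group 2 of the 5 were at 1 CPM or more and so held nearly all of the sum. KRT5 and KRT14 were at 0 in untreated and GO samples. What these levels show about the identity of the cells was not tested. Mitochondrially encoded transcripts took 5.31% to 6.28% of counts in untreated samples and 6.89% to 7.42% after GO–Rg3, but 12.1% to 24.1% after GO and 12.8% to 19.4% after GO–Rg3–DOX. The first GO library, with 24.1%, stood farthest from its group. What part these marker and mitochondrial levels have in the results was not tested. A fit without mitochondrially encoded genes gave log2 fold changes after GO of -0.72 for HSPA8 and -0.81 for HSP90AA1. With all genes they were -0.73 and -0.82. In that fit each of the 10 genes kept its sign and its side of an edgeR adjusted p of 0.01 in every comparison. The fit only leaves those rows out before scaling, so it cannot show what part the mitochondrial share of a library has in the results.

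In untreated Huh7 cells the 10 genes spanned a wide range of levels. Per kilobase of the reference transcript, HSPA8, which encodes the constitutive cytosolic HSP70, was highest at 1600 ± 6.68 CPM per kb (SD, n = 3), followed by the cytosolic HSP90 gene HSP90AA1 at 762 ± 16.0 and the mitochondrial HSP60 gene HSPD1 at 655 ± 10.2 CPM per kb. HSPE1, which encodes the HSP10 lid of the HSP60 chamber, had 181 ± 11.7 CPM per kb. The J-domain co-chaperone gene DNAJB1 (93.0 ± 0.615 CPM per kb) and HSPB1, which encodes the small heat shock protein HSP27 (84.8 ± 10.5 CPM per kb), came next, and these 2 genes did not differ beyond their spread. HSPH1, which encodes an HSP110 nucleotide exchange factor for HSP70, had 59.4 ± 2.25 CPM per kb. BAG3, an HSP70 co-chaperone gene, and the stress-inducible HSP70 gene HSPA1B had 24.3 ± 0.371 and 23.0 ± 1.79 CPM per kb, which did not differ beyond their spread. HSPA1A, the near-identical neighbor of HSPA1B, was lowest at 4.55 ± 0.0969 CPM per kb. After GO–Rg3–DOX the order differed: HSP90AA1 (760 ± 64.1 CPM per kb) and HSPD1 (749 ± 60.7 CPM per kb), which overlapped, stood above HSPA8 (428 ± 16.7 CPM per kb), and DNAJB1 (8.01 ± 0.338 CPM per kb) stood below HSPA1B (9.84 ± 0.413 CPM per kb). HSPA1A and HSPA1B share 1566 identical windows of 150 bases, which is 69.6% of the windows of HSPA1A, so the split of reads between them is uncertain. If reads that match both copies were not counted, the levels per kb of both are too low. Processed pseudogenes of HSPA8, HSP90AA1, HSPD1 and HSPE1 are known, and how reads with several matches were counted is not given in the sources used here. In the annotation HSPD1 and HSPE1 overlap on opposite strands, HSPE1 shares exons with the read-through gene HSPE1-MOB4, and HSP90AA1 overlaps WDR20 on the opposite strand.

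**Figure D1:**
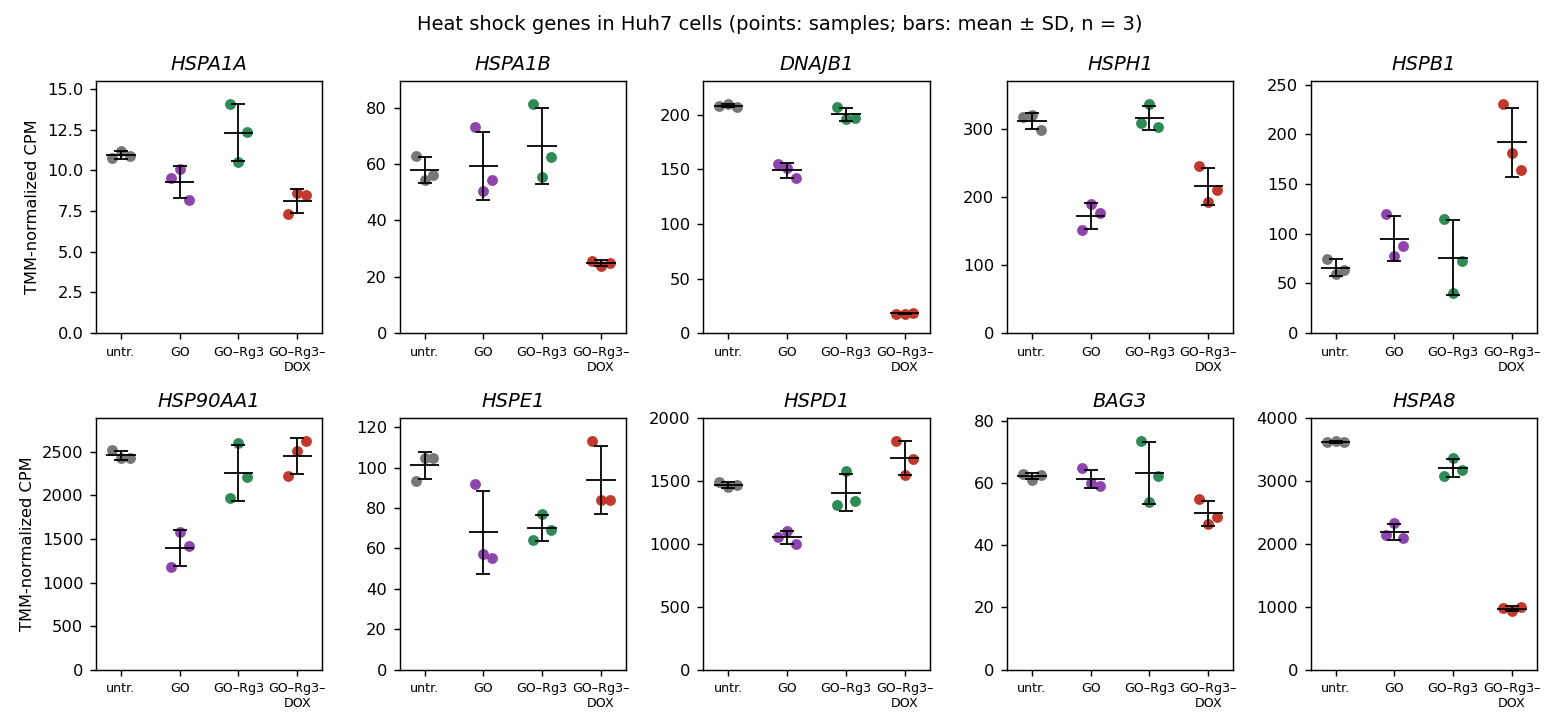
TMM-scaled CPM (vertical axis, linear from 0, a separate scale for each gene) of the 10 heat shock genes in the 4 groups. Points are samples and bars are the mean ± SD of 3 samples. DNAJB1 lay between 17.3 and 18.8 CPM after GO–Rg3–DOX and between 207 and 210.1 CPM in untreated samples, while HSPB1 lay between 164 and 231 CPM after GO–Rg3–DOX and between 59.3 and 75.0 CPM in untreated samples.

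Added together, the 10 genes held 8372 ± 77.1 CPM in untreated cells, 5245 ± 312 CPM after GO, 7679 ± 567 CPM after GO–Rg3 and 5708 ± 161 CPM after GO–Rg3–DOX (SD, n = 3). HSPA8, HSP90AA1 and HSPD1 made up 86.8% to 90.7% of that sum in each sample, so the sum mostly follows these 3 genes. All 3 of these genes passed lower after GO, whereas after GO–Rg3–DOX only HSPA8 of the 3 did.

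GO against untreated cells: 5 of the 10 heat shock genes were under-expressed after GO at an adjusted p below 0.01 (quasi-likelihood test of edgeR, Benjamini-Hochberg adjusted over all genes tested), and none was overexpressed. Of all 17092 genes, 27.6% passed, 15.4% lower and 12.1% higher. The 5 genes fell by less than a log2 fold change of 1, so 0 of 10 were called by both thresholds in either direction (2.62% of all genes were called lower and 3.84% higher); DESeq2 also called 0, and 6 of the 10 were lower and 0 higher at an unadjusted p below 0.05 by edgeR, beside 26.5% and 24.2% of all genes. The median log2 fold change of the 10 genes was -0.48, beside 0.01 over all genes.

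Among the cytosolic HSP70 machinery, HSPA8 was measured at 3615, 3641 and 3614 CPM in the untreated samples and at 2140, 2326 and 2091 CPM after GO. All 3 GO samples were below all untreated samples, and the log2 fold change was -0.73 (SE 0.09, edgeR adjusted p = 3.1e-05). HSPH1 had 317, 320.0 and 298 CPM in untreated samples and 152, 189 and 177 CPM after GO. Of the 10 genes, it had the most negative log2 fold change, -0.85 (SE 0.11, edgeR adjusted p = 3.9e-05), with groups that did not overlap. DNAJB1, whose product stimulates the ATPase of HSP70, had 208, 210.1 and 207 CPM in untreated samples and 155, 151 and 142 CPM after GO. The groups did not overlap, with a log2 fold change of -0.48 (SE 0.08, edgeR adjusted p = 0.00029). HSPA1B, with a log2 fold change of 0.03 (95% interval -0.28 to 0.35), HSPA1A, with -0.24 (-0.51 to 0.04), and BAG3, with -0.02 (-0.26 to 0.21), did not pass.

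HSP90AA1 had 2519, 2433 and 2428 CPM in untreated samples and 1174, 1582 and 1423 CPM after GO. The first GO sample was lowest, the groups did not overlap, and the log2 fold change was -0.82 (SE 0.13, edgeR adjusted p = 0.00017). In the mitochondrial chaperonin pair, HSPD1 had 1495, 1449 and 1468 CPM in untreated samples and 1054, 1102 and 1002 CPM after GO. HSPD1 had a log2 fold change of -0.48 (SE 0.10, edgeR adjusted p = 0.0015), with an adjusted p of 0.011 without the third GO library. HSPE1 had 93.5, 104.7 and 104.9 CPM in untreated samples and 91.7, 57.2 and 55.2 CPM after GO. The first GO sample, the one with the most mitochondrial transcripts, lay close to the untreated samples, and the log2 fold change of -0.57 missed the threshold (SE 0.17, edgeR adjusted p = 0.015). Without that library the log2 fold change of HSPE1 was -0.84 (edgeR adjusted p = 0.00019), and DESeq2 passed the gene with all libraries. Without the second GO library it was -0.46 (edgeR adjusted p = 0.061) and without the third -0.44 (edgeR adjusted p = 0.075).

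HSPB1 was the only gene of the 10 whose GO samples lay wholly above the untreated samples. It had 75.0, 59.3 and 63.3 CPM in untreated samples and 120.2, 77.1 and 87.4 CPM after GO. The log2 fold change of 0.53 did not pass (SE 0.27, edgeR adjusted p = 0.13). Separated groups were common in this comparison: 7 of the 10 genes lay wholly lower and 1 wholly higher after GO, beside 29.9% and 28.6% of all genes.

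The log2 fold change after GO also moved with the GC content of genes, with a Spearman coefficient of 0.43 over 16622 genes as a description of these libraries. With an offset for GC content the log2 fold change of HSPA8 was -0.66, that of HSP90AA1 -0.74, that of DNAJB1 -0.70 and that of HSPH1 -0.58, while that of HSPD1 was -0.18 and no longer passed (edgeR adjusted p = 0.19). HSPA1A then had -0.53 and passed lower (edgeR adjusted p = 0.00084), HSPB1 had 0.10 (edgeR adjusted p = 0.66) and HSPE1 -0.19 (edgeR adjusted p = 0.48). With the replicate block added to that offset, HSPA1B (-0.26, edgeR adjusted p = 0.0084) and BAG3 (-0.25, edgeR adjusted p = 0.0086) also passed lower. The offset was fitted to each sample's deviation from the mean of all 12 samples. It therefore also takes out any response to treatment that moves with GC content.

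**Figure D2:**
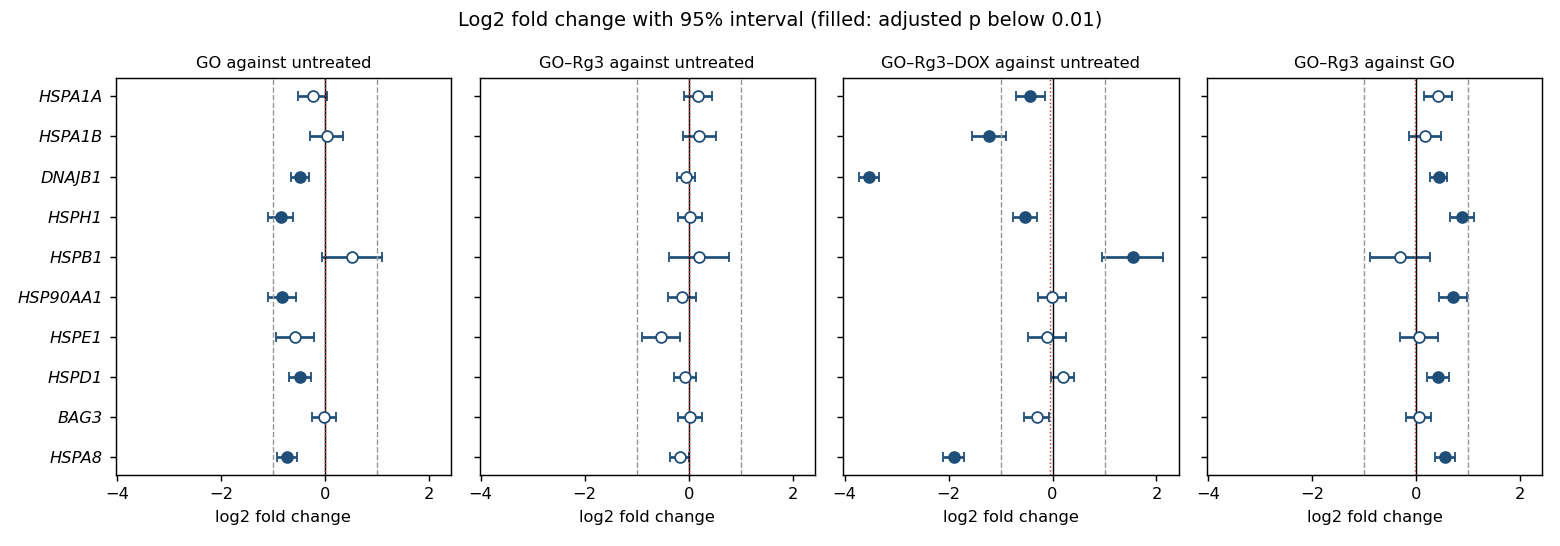
Log2 fold change (horizontal axis) of the 10 heat shock genes in the 4 comparisons, with 95% intervals from edgeR; filled points passed at an adjusted p below 0.01. Dashed gray lines mark a log2 fold change of -1 and 1 and the dotted red line marks the median of all genes. The 5 filled points after GO lie between -0.85 and -0.48, no point is filled for GO–Rg3 against untreated, and DNAJB1 stands at -3.54 after GO–Rg3–DOX.

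GO–Rg3 against untreated cells: at the same dose of 400 µg/mL, no heat shock gene passed the threshold of an adjusted p below 0.01 in either direction by edgeR, as 0.164% of all genes did (0.0585% higher and 0.105% lower), and DESeq2 passed 0 as well. None was called by both thresholds, as 0.0117% of all genes were higher and 0.0468% lower. At an unadjusted p below 0.05, 1 of the 10 was lower, HSPE1, and 0 were higher, beside 9.5% and 3.9% of all genes. It had 64.1, 76.9 and 69.3 CPM after GO–Rg3, all below the untreated samples, with a log2 fold change of -0.53 (SE 0.17, edgeR adjusted p = 0.15). HSPA8 had 3079, 3366 and 3176 CPM after GO–Rg3, again all below the untreated samples, with a log2 fold change of -0.18 (95% interval -0.37 to 0.01). These were the 2 genes of the 10 whose groups did not overlap, both lower, beside 16.6% of all genes; no gene lay wholly higher, beside 9.12%.

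The intervals bound how far the other genes may have moved after GO–Rg3. HSPH1 had 308, 337 and 303 CPM and a log2 fold change of 0.02 (95% interval -0.21 to 0.25). DNAJB1 had 208, 196 and 197 CPM and a log2 fold change of -0.06 (-0.23 to 0.11). HSP90AA1 ranged from 1971 to 2601 CPM (log2 fold change -0.12, 95% interval -0.39 to 0.15). HSPB1 was the most variable, with 114.8, 39.9 and 72.7 CPM, so that the samples surrounded the untreated ones and the interval ran from -0.38 to 0.78. The remaining 4 genes, HSPA1A, HSPA1B, HSPD1 and BAG3, had log2 fold changes from -0.06 to 0.20.

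GO–Rg3 against GO, the comparison at equal dose: 5 of the 10 genes passed higher after GO–Rg3 than after GO, and none passed lower. Of all genes, 13.6% passed, 7.33% higher and 6.25% lower. This comparison and the one of GO with untreated cells share the GO samples, so each is given with its own values only. HSPH1 had a log2 fold change of 0.87 (SE 0.11, edgeR adjusted p = 7.8e-05) and HSP90AA1 one of 0.70 (SE 0.13, edgeR adjusted p = 0.0013). The values were 0.55 for HSPA8 (SE 0.09, edgeR adjusted p = 0.0006), 0.43 for DNAJB1 (SE 0.08, edgeR adjusted p = 0.0017) and 0.42 for HSPD1 (SE 0.10, edgeR adjusted p = 0.0069). No gene was called by both thresholds, as 0.702% of all genes were higher and 2.07% lower, and DESeq2 also called 0 of the 10, although 6 were higher and 0 lower at an unadjusted p below 0.05, beside 20.3% and 19.4% of all genes.

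In 6 of the 10 genes every GO–Rg3 sample was above every GO sample, beside 20.1% of all genes; the sixth was HSPA1A, with a log2 fold change of 0.41 that did not pass (SE 0.13, edgeR adjusted p = 0.028). No gene lay wholly lower (18.9% of all genes). HSPE1 had a log2 fold change of 0.04 (95% interval -0.32 to 0.41), BAG3 one of 0.04 (-0.19 to 0.28), HSPA1B one of 0.17 (-0.15 to 0.48) and HSPB1 one of -0.32 (-0.90 to 0.26). The number of passing genes was 3 without the third GO library, when DNAJB1 (edgeR adjusted p = 0.012) and HSPD1 (edgeR adjusted p = 0.035) did not pass, and 1, HSPH1, when the 6 samples compared were fitted alone. HSPD1 also did not pass without the first or the second GO library, without the second or the third GO–Rg3 library, or with an offset for GC content (log2 fold change 0.18, edgeR adjusted p = 0.22). With the same offset HSPA1A (0.67, edgeR adjusted p = 0.00025) and HSPA1B (0.42, edgeR adjusted p = 0.0033) passed higher.

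GO–Rg3–DOX against untreated cells: at 100 µg/mL, 6 of the 10 genes passed, 5 lower and 1 higher. DNAJB1, HSPA8 and HSPA1B, which encode the J-domain partner, the constitutive member and an inducible member of the HSP70 system, were called under-expressed (adjusted p below 0.01 and log2 fold change below -1, 18.2% of all genes). HSPB1 was called overexpressed (12.6% of all genes), and HSP90AA1, HSPD1 and HSPE1 did not pass in either direction. Of all genes 30.5% passed lower and 25.5% higher, so the share of the 10 that passed, 6 of 10, lay near the 56.0% of all genes. The median log2 fold change of the 10 was -0.37, beside -0.06 over all genes. Since GO, Rg3 and DOX were given together here, their effects cannot be told apart.

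DNAJB1 had 17.8, 17.3 and 18.8 CPM after GO–Rg3–DOX, against 207 to 210.1 CPM in untreated samples and 142 to 208 CPM after the other 2 treatments. Its 431 to 493 counts in these 3 libraries compare with 6572 to 8805 counts in the untreated ones. Its log2 fold change was -3.54 (SE 0.09, edgeR adjusted p = 1.3e-12), an 11.6-fold lower level with a 95% interval of 0.0754 to 0.0984 for the ratio. By this value DNAJB1 ranked 54 from the lowest among the 17092 genes. Without any single library the log2 fold change stayed between -3.55 and -3.49. The gene overlaps TECR and MIR639 on the opposite strand, and whether reads were counted by strand is not given in the sources used here.

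HSPA8 fell from 3614 to 3641 CPM in untreated samples to 980, 928 and 1002 CPM after GO–Rg3–DOX, which is 3.74-fold lower. This is a log2 fold change of -1.90 (SE 0.09, edgeR adjusted p = 3.3e-10), and the coefficient of variation within the groups was 0.417% and 3.91%. Small nucleolar RNA genes lie within HSPA8 on the same strand. HSPA1B had 62.9, 54.4 and 56.2 CPM in untreated samples and 25.7, 23.7 and 24.9 CPM after GO–Rg3–DOX, 2.34-fold lower with no overlap. Its log2 fold change was -1.22 (SE 0.15, edgeR adjusted p = 4.6e-06). HSPA1A had 10.7, 11.2 and 10.9 CPM against 7.29, 8.63 and 8.46 CPM, with a log2 fold change of -0.43 (SE 0.13, edgeR adjusted p = 0.0096); leaving out any 1 of the 6 libraries compared gave an edgeR adjusted p of 0.02 to 0.05, and the gene did not pass with RLE scaling or by DESeq2. With the counts of HSPA1A and HSPA1B summed, which removes the split between the copies, the log2 fold change was -1.06 (edgeR adjusted p = 8.1e-06). The sum does not recover reads that match both copies if these were not counted.

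HSPH1, the exchange factor gene, had 245, 192 and 210.2 CPM after GO–Rg3–DOX, below the untreated 298 to 320.0 CPM. The log2 fold change was -0.53 (SE 0.11, edgeR adjusted p = 0.00049). With the offset for GC content, which also takes out a treatment response that moves with GC content, it was -0.02 (edgeR adjusted p = 0.86). BAG3, which links HSP70 to selective autophagy, had 54.8, 46.8 and 49.0 CPM against 61.1 to 62.9 CPM. Its groups did not overlap, and the log2 fold change of -0.31 did not pass (SE 0.11, edgeR adjusted p = 0.023). BAG3 passed lower with the offset for GC content (-0.56, edgeR adjusted p = 5.6e-06), with library totals alone (-0.73, edgeR adjusted p = 4.9e-05), without a filter (-0.39) and with the 6 samples compared alone (-0.27).

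HSPB1 was the single gene of the 10 that passed higher. It had 231, 181 and 164 CPM after GO–Rg3–DOX and at most 120.2 CPM in any other sample. The level was 2.91-fold that of untreated cells, with a 95% interval of 1.94 to 4.38, and a log2 fold change of 1.54 (SE 0.28, edgeR adjusted p = 0.00016). With the offset for GC content the log2 fold change was 0.96, which still passed but lay under the fold threshold, so that no gene was then called higher. The Spearman coefficient of log2 fold change with GC content was 0.36 over 16622 genes in this comparison.

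The HSP90 gene and the mitochondrial chaperonin genes did not pass after GO–Rg3–DOX. HSP90AA1 had 2226, 2509 and 2629 CPM after GO–Rg3–DOX, which surrounded the untreated 2428 to 2519 CPM. Its log2 fold change was -0.0031 with a 95% interval of -0.27 to 0.27. HSPD1 had 1821, 1549 and 1672 CPM, all above the untreated samples, with a log2 fold change of 0.19 that did not pass (SE 0.10, edgeR adjusted p = 0.10). HSPE1 had 113.3, 83.9 and 84.1 CPM and a log2 fold change of -0.11 (95% interval -0.47 to 0.26), but with library totals alone it passed lower (-0.54, edgeR adjusted p = 0.0023), and with the offset for GC content it had 0.50 (edgeR adjusted p = 0.042). Groups did not overlap in 6 genes lower and 2 higher, beside 40.3% and 35% of all genes. The sign of HSPD1 moved with the scaling: with library totals alone, which moved the median of all genes in this comparison from -0.06 to -0.47, its log2 fold change was -0.23, and with the offset for GC content it was 0.74 (edgeR adjusted p = 9.6e-06). The signs of DNAJB1, HSPA8, HSPA1B and HSPB1 in this comparison were the same under every alternative run.

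**Figure D3:**
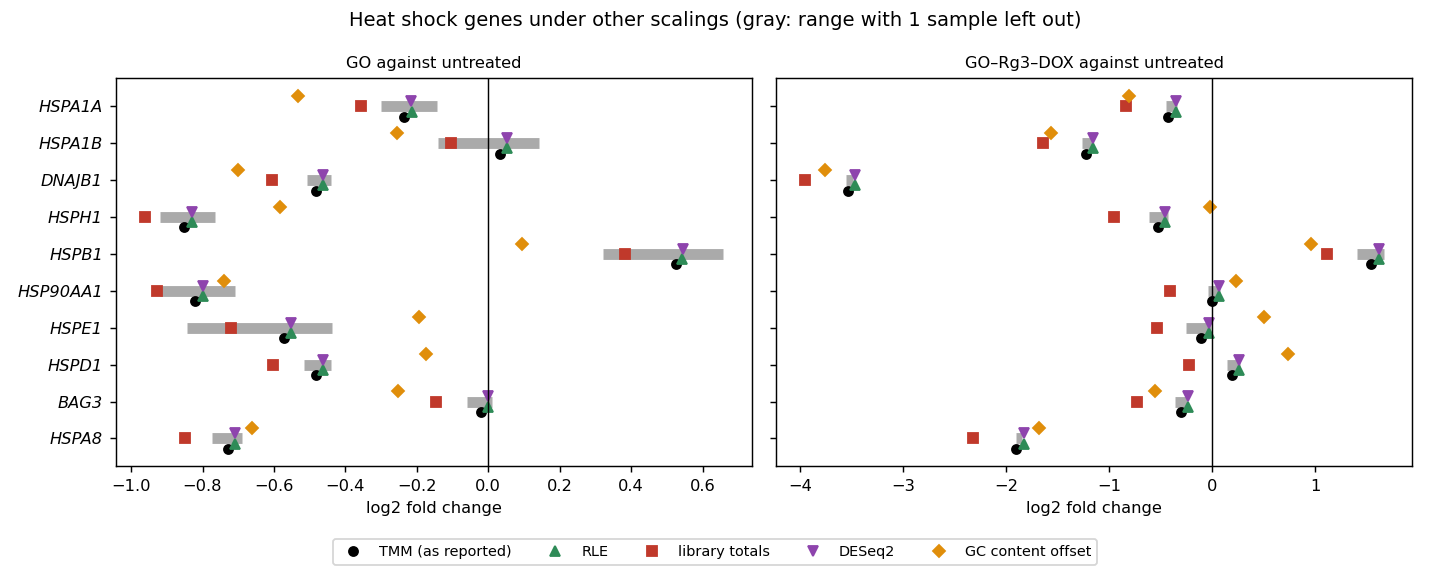
Log2 fold change (horizontal axis) of the 10 heat shock genes for GO and for GO–Rg3–DOX against untreated cells under the reported TMM scaling, RLE scaling, library totals alone, DESeq2 and an offset for GC content; gray bars span the values with 1 sample left out. In GO–Rg3–DOX, DNAJB1 lies between -3.95 and -3.47 throughout, while HSPD1 ranges from -0.23 to 0.74.

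The factors that act on these genes were measured as well. HSF1 had 52.6 ± 5.72 CPM in untreated cells, 65.5 ± 12.4 CPM after GO, 65.9 ± 26.9 CPM after GO–Rg3 and 117.5 ± 17.6 CPM after GO–Rg3–DOX (SD, n = 3). It was called overexpressed after GO–Rg3–DOX, with a log2 fold change of 1.16 (SE 0.23, edgeR adjusted p = 0.00033). Over the alternative runs this value ranged from 0.55 to 1.27, so that the call did not hold in all of them. The samples of HSF1 overlapped the untreated ones after GO and GO–Rg3, and its log2 fold change after GO ranged from -0.12 to 0.42. HSF2, a related factor, had 18.9 ± 0.399 CPM in untreated cells, 12.7 ± 0.322 CPM after GO, 18.8 ± 1.33 CPM after GO–Rg3 and 5.0 ± 1.06 CPM after GO–Rg3–DOX. The log2 fold change of HSF2 was -0.57 after GO (SE 0.12, edgeR adjusted p = 0.002) and -1.91 after GO–Rg3–DOX (SE 0.13, edgeR adjusted p = 1.1e-08). HSF4 was called overexpressed after GO–Rg3–DOX (log2 fold change 1.02, with 0.49 to 1.09 over the alternative runs) and rose after GO below the fold threshold (0.83). HSBP1, which encodes a small protein that binds HSF1, fell by 0.77 on the log2 scale after GO (edgeR adjusted p = 0.00013) and had a log2 fold change of 0.27 after GO–Rg3–DOX (edgeR adjusted p = 0.051). Transcript levels do not report the activity of HSF1, which is set largely on the protein.

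The wider chaperone network was read from 77 other listed genes, of which 70 were tested. After GO, 35 of the 70 passed lower and 4 higher, beside 15.4% and 12.1% of all genes, with a median log2 fold change of -0.42. CHORDC1, an HSP90 co-chaperone gene (log2 fold change -1.39), and CCT2, a subunit of the cytosolic chaperonin (-1.04), were called. CCT, the cytosolic chaperonin that folds actin and tubulin, passed lower in 7 of its 8 subunits, with log2 fold changes from -1.04 to -0.43, and the eighth, CCT7, had -0.18. In the J-domain list 5 of 8 passed lower and 1 higher: DNAJA1, an HSP40 partner of HSP70, had 339 ± 25.2 CPM after GO and 635 ± 16.7 CPM in untreated cells (log2 fold change -0.90, SE 0.10), while DNAJB2 had a log2 fold change of 0.76 (SE 0.14). Of the HSP90 list, 6 of 11 passed lower, among them PTGES3, which encodes the p23 co-chaperone (-0.50, edgeR adjusted p = 0.00042). With 1 library left out, 25 to 34 of the 70 passed lower and 2 to 4 higher; 2 passed higher without the first or the third GO library and without the second or the third untreated library.

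After GO–Rg3, 0 of the 70 passed by edgeR in either direction, while DESeq2 passed 0 higher and 2 lower, and at an unadjusted p below 0.05 1 was higher and 10 were lower by edgeR, beside 3.9% and 9.5% of all genes. Against GO at equal dose, 21 passed higher and 3 lower, beside 7.33% and 6.25% of all genes. CHORDC1 was called, with 97.7 ± 12.9 CPM after GO–Rg3 and 42.4 ± 6.64 CPM after GO (log2 fold change 1.20, SE 0.12, edgeR adjusted p = 1.4e-05), and 6 of the 8 CCT subunits passed higher. With the 6 samples compared fitted alone, 4 of the 70 passed higher and 0 lower. Without the third GO library 9 passed higher, and without the second and the third GO–Rg3 library 10 and 8 did.

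After GO–Rg3–DOX, 19 of the 70 passed higher and 23 lower, beside 25.5% and 30.5% of all genes, and 7 were called higher and 18 lower, beside 12.6% and 18.2%. The median log2 fold change was 0.01, beside -0.06 over all genes. Among the HSP70 partners, BAG4, which binds the ATPase domain of HSP70, had 8.48 ± 0.984 CPM against 65.0 ± 2.37 CPM in untreated cells (log2 fold change -2.94, SE 0.12, edgeR adjusted p = 8e-11). BAG2 (-2.01) and BAG5 (-1.31), also BAG proteins, were called lower, and BAG6 (1.31) and HSPBP1 (1.36), a nucleotide exchange factor, were called higher. Of the J-domain genes DNAJA2 (-2.12), DNAJA1 (-1.42) and DNAJB5 (-1.27) were called lower. HSPA6, a strictly heat-inducible HSP70 gene of primates, was called higher (log2 fold change 2.04, SE 0.23, edgeR adjusted p = 1.3e-06) but was low, at 3.63 ± 0.0689 CPM against 0.880 ± 0.203 CPM, and it may share reads with its close copy HSPA7. In the same list HSPA13 (-1.11) and HSPA14 (-1.09) were called lower.

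In the mitochondrial list after GO–Rg3–DOX, LONP1, a matrix protease gene, was called higher (1.30), and CLPX (-1.62), GRPEL2 (-1.18) and DNAJA3 (-1.02) were called lower. The HSP90 list held 1 called gene, CHORDC1 (-1.46), and of the CCT subunits 2 passed higher and 1 lower, below the fold threshold. Of the other heat-inducible genes MRPL18 (-1.41), JMJD6 (-1.31), DEDD2 (-1.13) and ZFAND2A (-1.02) were called lower, and CLU, which encodes the extracellular chaperone clusterin, was called higher, with 3722 ± 371 CPM against 1525 ± 45.2 CPM (log2 fold change 1.29). Among the small heat shock protein genes, 3 of 8 were tested, and HSPB8, a partner of BAG3, passed higher with a log2 fold change of 0.99 (edgeR adjusted p = 1.8e-06). The sign of each called gene held under every alternative run, but the counts moved: with library totals alone 10 passed higher and 35 lower, with 1 called higher and 22 lower, and with the offset for GC content 28 passed higher and 21 lower, with 3 called higher and 11 lower.

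**Figure D4:**
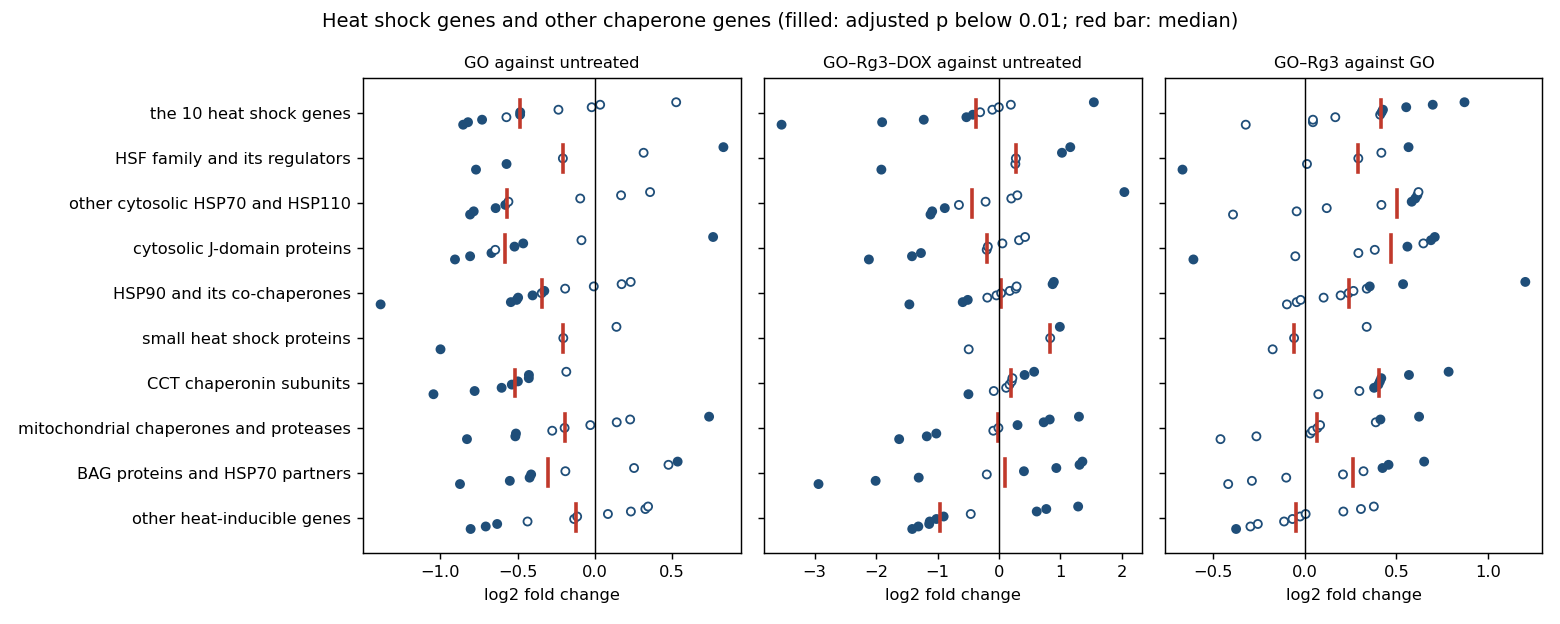
Log2 fold change (horizontal axis, a separate scale for each comparison) of the 10 heat shock genes and of 9 lists of other chaperone genes, 1 point a gene; filled points passed at an adjusted p below 0.01 by edgeR and red bars are list medians. After GO the CCT subunits lie from -1.04 to -0.18, and after GO–Rg3–DOX the cytosolic J-domain list reaches from -2.12 to 0.42.

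For the 4 called heat shock genes, likeness of the pattern over the 12 samples was measured as the root mean square difference of log2 CPM, centered on the untreated mean, against 8951 tested genes with a mean of at least 10 CPM. The nearest genes to DNAJB1 were TMEM177 (difference 0.0986) and FOXA1 (0.119), with log2 fold changes after GO–Rg3–DOX of -3.71 and -3.57. HSPA8 was nearest to RIOK2 (0.0672) and RIOK1 (0.0843). HSPA1B was nearest to GRWD1 (0.101) and RAB35 (0.111), and HSPB1 to ISYNA1 (0.107) and SERINC2 (0.134). Among the other 9 heat shock genes, a far smaller pool that is not compared with the one above, the smallest differences were 0.814 for DNAJB1 and HSPA8, 0.578 for HSPA8 and HSPA1B, 0.447 for HSPA1B and HSPA1A, and 0.929 for HSPB1 and HSPD1.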

How the data were processed

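Poly(A) RNA of 12 Huh7 samples (4 groups of 3, TruSeq Stranded mRNA libraries) was sequenced, and the authors deposited a table of raw read counts per gene, made with featureCounts against GRCh37 per the labels; the strand setting is not given in the sources used here. The 10 genes and the wider lists were chosen with earlier results of these data known. One model with a term per group was fitted to all samples in edgeR 4.0.16 (limma 3.58.1, R 4.3.3), with TMM scaling, genes kept at 10 counts in 3 or more samples, the quasi-likelihood test and Benjamini-Hochberg adjustment over 17092 genes. "Passed" means an adjusted p below 0.01, and "called" also an absolute log2 fold change above 1. CPM are these counts scaled by TMM (marker levels use library totals), and levels per kb use the reference transcript. Depth was 27802871 to 38877420 counts per sample. The script was tested on simulated data: for GO against untreated, 200 of 200 genes changed by a log2 fold of 2 among 16750 were recovered, with 0 false calls. Alternatives were DESeq2 1.42.0, RLE scaling, library totals, nuclear genes only, other filters and thresholds, a replicate block, a GC content offset (loess, 97.3% of tested genes with a value), the 6 samples compared alone, HSPA1A and HSPA1B summed, and each sample left out. Named were all 10 genes; from the lists, each called gene, HSF1, HSF2 and up to 4 further genes with the smallest adjusted p; and, for each called gene of the 10, the 2 most similar genes. The rule names 1 further list gene, which is not reported here.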

Additional observations from a re-analysis of the deposited data

How the results depend on the processing

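None of the 16 results past an adjusted p of 0.01 changed sign under any alternative run. Of 684 alternative values for single genes, 598 kept their direction and side of the threshold, 26 lost and 26 gained significance and 34 changed sign. Of 280 alternative counts 268 stayed within 1.5 times. Many of the counts were 0 in the reported fit, and a 0 that stayed 0 is among the 268, so this share does not measure how firm the counts are. Without the minimum fold change the called counts were 5 lower after GO, 5 lower after GO–Rg3–DOX and 5 higher for GO–Rg3 against GO. With the GC content offset, alone or with the replicate block, 0 genes were called higher after GO–Rg3–DOX (HSPB1 0.96 and 0.95) and 2 passed higher. Without a filter 1 gene passed higher after GO (HSPB1) and 1 lower after GO–Rg3 (HSPE1). For GO–Rg3 against GO, 1 was called higher with library totals alone (HSPH1, 1.01), 1 passed higher with the 6 samples compared alone, and 3 to 5 did with 1 sample left out. After GO the sign of HSPA1B turned with library totals (-0.10), the GC offset (-0.25) and the GC offset with the block (-0.26), and ranged from -0.14 to 0.14 with 1 sample left out, and that of BAG3 turned with 10 counts in all 12 samples (0.0074) and ranged from -0.060 to 0.012. After GO–Rg3, with the 6 samples compared alone, DNAJB1 was at 0.016 and HSPD1 at 0.0050; HSPD1 was at 0.0023 and 0.0006 with the GC offset without and with the block, and with 1 sample left out HSPH1 ranged from -0.029 to 0.049, HSPB1 from -0.23 to 0.51 and BAG3 from -0.10 to 0.13. After GO–Rg3–DOX, HSP90AA1 was at 0.066 with RLE scaling and with DESeq2, 0.030 with 10 counts in all samples, 0.038 with the 6 samples alone, 0.23 with the GC offset, 0.23 with the block added and -0.037 to 0.078 with 1 sample left out; HSPD1 was at -0.23 with library totals, and HSPE1 at 0.50 and 0.46 with the GC offset without and with the block. For GO–Rg3 against GO, HSPE1 was at -0.27 and -0.22 with the GC offset without and with the block and -0.086 to 0.32 with 1 sample left out, HSPA1B at -0.0052 to 0.34 and BAG3 at -0.080 to 0.15. The cause was not tested in any case. With library totals alone the median of all genes moved from 0.01 to -0.11 after GO and from -0.02 to 0.12 for GO–Rg3 against GO; all genes called went from 657 higher and 448 lower to 476 and 695 after GO, from 2159 and 3103 to 1029 and 4937 after GO–Rg3–DOX, and from 120 and 353 to 220 and 231 for GO–Rg3 against GO. Same-numbered samples correlated with a median r of 0.05 (-0.02 to 0.25 over 18 pairs) in their deviations from the group means. Pairs with different numbers had a median r of -0.03 (-0.26 to 0.21 over 36 pairs). These values do not settle whether the numbers pair the samples. With the replicate block 6 genes passed lower after GO (HSPE1 -0.60 among them) and 6 after GO–Rg3–DOX (BAG3 -0.31 among them). The 177 to 521 counts of HSPA1A per library limit what its small differences can show.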
